A study of Mus musculus with 7 samples.

Results

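The RNA content of a normal mouse hepatocyte area was described from 3 regions of interest, the 3 NCD regions among 6 tissue regions and 7 samples in all. They were taken by their label, the NCD diet, and no measured value entered the choice. The tissue was formalin-fixed, paraffin-embedded liver of 24-week-old mice, and the file comments mark the mice of these regions as WT. The label field named genotype holds the diet name, which is kept here as NCD. Hepatocyte areas had been outlined on fluorescence images as Albumin-positive and not marked for CLEC4F, a surface lectin of Kupffer cells, the resident macrophages of the liver. The series text speaks of 3 NCD mice, but no label says which mouse a region came from, and all regions lay on 1 slide. Spread between regions may therefore be partly technical. The other diet and the no template control were not analysed here.

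The assay was GeoMx with its whole transcriptome probes for mouse, in which bar-coded probes hybridised to transcripts are released by light from a chosen area and counted by sequencing. Nearly every gene target was read by 1 probe, so transcript length does not enter a count, but probes differ in how well they bind, and a rank compares targets only with that reservation. Each value is given as a share of all gene counts of its region or as a multiple of the region's negative probe level, the mean count of probes with no mouse target. The parenchymal hepatocyte is the main secretory and metabolic cell of the liver. It makes most plasma proteins, assembles lipoproteins, turns ammonia into urea, releases glucose in fasting and modifies drugs and hormones for excretion. Hepatocytes near the portal vein and near the central vein divide these tasks between them, and the sinusoids between hepatocyte plates hold Kupffer cells, fenestrated endothelium and stellate cells.

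The regions NCD 1, NCD 2 and NCD 3 held 2300428, 2677060 and 3808034 gene counts from 1768, 1747 and 1940 nuclei, and the negative probe level was 28.8, 31.6 and 40.7 counts. NCD 1 and NCD 2 were close to each other and NCD 3 stood apart. Counts of NCD 1 and NCD 2 differed beyond sampling noise (chi-square over degrees of freedom 1.20 across 19951 targets, p = 4.78e-80), but the same statistic was 4.7997 for NCD 1 against NCD 3 and 3.92 for NCD 2 against NCD 3. On the slide NCD 1 and NCD 2 lay 2258 position units apart, against 9282 and 7158 units to NCD 3, in a unit the files do not state. The biological coefficient of variation over targets above the detection limit was 11.3% in all 3 regions and 4.04% without NCD 3. Region ratios and the adjusted p-values of single markers below are also given without NCD 3, whereas a ± value is the SD over all 3 regions.

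Hepatocyte markers were abundant in all regions. The areas had been outlined as Albumin-positive, so a high level of Alb was set by that choice and does not check the label. Alb, which encodes albumin, had 116865, 146286 and 270349 counts in NCD 1, NCD 2 and NCD 3, which is 4054, 4626 and 6649 times the negative probe level. Apoa1, the main protein of high-density lipoprotein, stood at 1349, 1475 and 1907 times that level, and Ttr, the thyroxine and retinol transporter transthyretin, at 294, 318 and 416 times. All 3 markers were highest in NCD 3. Hnf4a, a nuclear receptor that maintains hepatocyte identity, was at 24.4, 25.1 and 26.7 times the level, the least abundant of the 19 hepatocyte markers examined. All 19 were called above the detection limit, set at 2 times the negative probe level of each region and tested with edgeR's quasi-likelihood test at an adjusted p of 0.05. Among all 19951 gene targets, 6592 (33.0%) were called above that limit, 9856 were called below it and 3503 were neither. Counting NCD 1 and NCD 2 as a single region left 6411 calls, of which 6401 were shared, and leaving out NCD 3 left 6359, of which 6213 were shared.

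Counts were concentrated in few targets, and the ranking by mean share was divided into tiers after ranks 10, 50, 200, 1000 and 3000. The most abundant target alone held 5.88 ± 1.07% of the gene counts (mean ± SD, n = 3 regions, as for every ± below). The first 10 targets held 15.1 ± 1.02%, the first 200 held 35.4% and the first 3000 held 65.1%. Reaching 50% of the counts took 1097 targets in NCD 1, 1000 in NCD 2 and 682 in NCD 3. The 13359 targets not above the limit still held 21.9 ± 1.98% of all counts, at a median of 1.35 times the negative probe level. A count equal to that level in all 19951 targets would make up at least 21.3% of the counts of each region. That sum includes the called targets, so the 2 percentages cover unlike sets of targets. By their median, the targets not above the limit lay somewhat over the background. No target was at 0, with lowest counts of 6, 2 and 1. Ranking by share and by multiple of the negative level gave the same order almost throughout, with 199 of the first 200 targets in common. For Alb the 95% Wilson interval was 5.05 to 5.11% in NCD 1, 5.44 to 5.49% in NCD 2 and 7.07 to 7.13% in NCD 3. Such intervals cover counting error only, and the regions differed by far more than that.

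**Figure D1:**
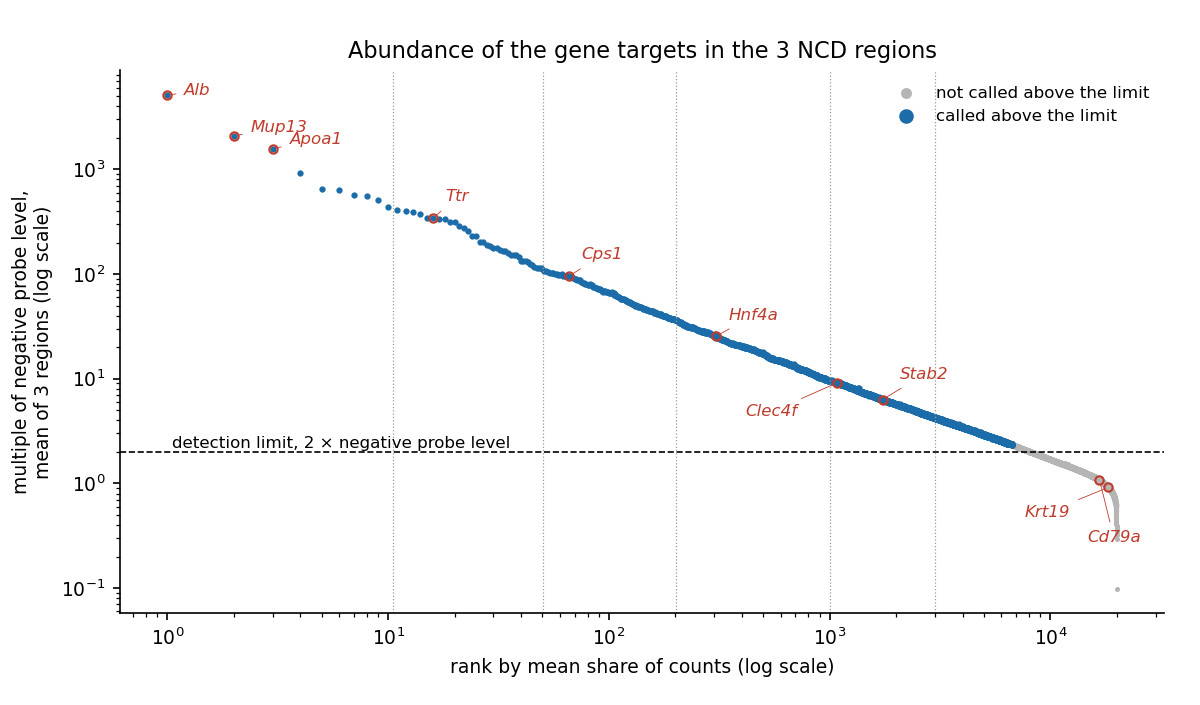
Each point is a gene target, with its rank by mean share of counts on the horizontal axis and its mean multiple of the negative probe level over 3 NCD regions on the vertical axis, both on log scales. Dotted lines mark the tier borders at ranks 10, 50, 200, 1000 and 3000, and the dashed line marks the detection limit. Levels run from 5109.7 times the negative level for Alb over 25.4 for Hnf4a to 0.915 for Krt19.

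The first 10 ranks were almost wholly given to exported proteins. Of these targets, 8 encode secreted proteins and held 90.7 ± 0.578% of the tier's counts. Albumin was followed by the target named Mup13, at 2.88, 2.73 and 1.76% of counts in NCD 1, NCD 2 and NCD 3. This target is shared by 16 genes of the major urinary proteins, carriers of small pheromones that leave the liver for the urine, so its level belongs to the family. It ran against Alb, being lowest in the region where Alb was highest. Apolipoproteins took the next places. Apoa1 was at 1.69, 1.74 and 2.04%, and Apoa2, a further protein of high-density lipoprotein, at 1.00, 1.03 and 1.17%. Apoe, the ligand by which lipoprotein remnants are taken up, was at 0.653, 0.701 and 0.824%, and Apoc1, which slows that uptake, at 0.623, 0.668 and 0.693%. All 4 were highest in NCD 3. Iron carriage and mineral binding closed the tier, with Trf, which encodes transferrin, at 0.529, 0.561 and 0.666%, and Ahsg, which encodes fetuin-A, at 0.441, 0.461 and 0.596%.

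Only 2 of the first 10 targets encode intracellular proteins. Gstp1, a target shared by 2 genes of the pi class of glutathione transferases, was at 0.788, 0.811 and 0.690% and lowest in NCD 3. Fabp1, the fatty acid binding protein of the hepatocyte cytosol, was at 0.588, 0.616 and 0.714%. The order was only partly fixed, and less so below this tier. Of the 24 neighbouring pairs among the first 25 targets, 6 kept the same order in all 3 regions, and all 6 lay within the first 10 ranks. Alb led the Mup13 target by 3.42 ± 1.68 percentage points and Apoa1 led Apoa2 by 0.757 ± 0.0958 points in every region. Mup13 and Apoa1 exchanged places in NCD 3.

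**Figure D2:**
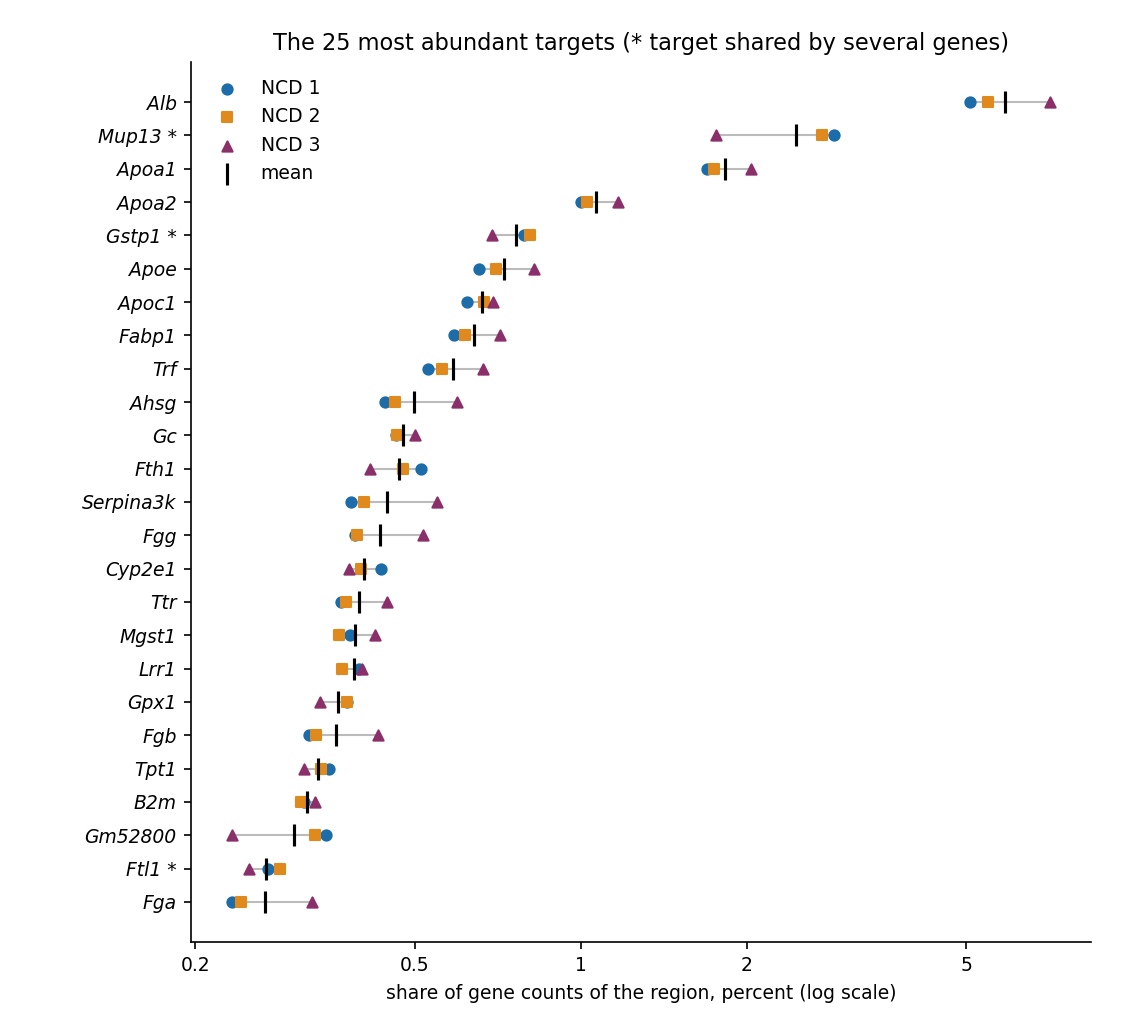
Shares of gene counts in percent (log scale) of the 25 most abundant targets, with 1 symbol per NCD region and a bar at the mean of 3 regions. NCD 1 and NCD 2 lie close together for most targets, and NCD 3 lies to the right for albumin, apolipoproteins and fibrinogen chains and to the left for Mup13, Gstp1, Fth1 and Gm52800.

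Ranks 11 to 50 held 9.94 ± 0.583% of the counts, at 110 to 411 times the negative probe level. Secreted proteins still filled 42.0 ± 2.40% of this tier with 16 targets. Gc, the vitamin D binding protein, was at 0.476 ± 0.0213% of counts and Serpina3k, a serine protease inhibitor of plasma, at 0.445 ± 0.0898%. The 3 fibrinogen chains lay near each other. Fgg was at 0.389, 0.393 and 0.518%, Fgb at 0.321, 0.332 and 0.429% and Fga at 0.234, 0.243 and 0.326%. Each was highest in NCD 3, and in each region the order was Fgg, Fgb and Fga. C3, the central complement component, was at 0.211 ± 0.0318%, Serpinc1, which encodes antithrombin, at 0.174 ± 0.0172%, and Hamp, which encodes the iron hormone hepcidin, at 0.147, 0.165 and 0.102%, lowest in NCD 3.

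Redox defence and iron storage made up 14.5 ± 1.52% of ranks 11 to 50 with 5 targets. Fth1, the heavy chain of ferritin, was at 0.468 ± 0.0491% and the light chain target Ftl1, shared by 2 genes, at 0.269 ± 0.0175%. Gpx1, which reduces hydrogen peroxide with glutathione, was at 0.364 ± 0.0233%, Cat, which encodes catalase, at 0.182 ± 0.0127%, and Sod1, the cytosolic superoxide dismutase, at 0.154 ± 0.00298%. Detoxification filled 13.1 ± 0.541% of the tier. Cyp2e1, the P450 that oxidises ethanol and small solvents, was at 0.434, 0.399 and 0.379%, and Mgst1, a glutathione transferase of membranes, at 0.381, 0.364 and 0.424%. Adh1, an alcohol dehydrogenase, was at 0.132 ± 0.0158%. In fuel metabolism Pck1, which commits carbon to gluconeogenesis, was at 0.177 ± 0.0191% and Scd1, which desaturates stearate, at 0.137, 0.142 and 0.246%. Tpt1 and Eef2, of which the second moves the ribosome along its message, were at 0.334 ± 0.0176% and 0.155 ± 0.0114%. B2m, the light chain of class I molecules, was at 0.319 ± 0.0102%.

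In these first 50 ranks 4 targets were in no function list. Lrr1, which encodes a substrate receptor of a ubiquitin ligase, was at rank 18 with 316, 313 and 376 times the negative probe level. Gm52800, a predicted gene, was at rank 23 with 275, 279 and 219 times. Car3, a carbonic anhydrase, and Gm52523, a predicted gene, were at ranks 33 and 50, and these last were singled out after their values were seen. Tier borders were not gaps: Ahsg at rank 10 had 0.499% of counts and Gc at rank 11 had 0.476%, and Gm52523 at rank 50 had 0.129% against 0.125% for Aldh2 at rank 51.

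Promoter sequences are shown for Alb, Fabp1 and Pck1 of the first 50 ranks and for Rpl10 at rank 73. Windows of the most abundant tiers held few CG pairs at the median, a property that the ranking did not use. The windows run from 250 bases before to 50 bases after the annotated start, read 5′ to 3′ on the gene's strand, and come from RefSeq (GRCm38.p6). Capitals mark matches to TATANA, searched on the gene's strand between 45 and 15 bases before the start, and to GTTAATNA, searched on both strands of the whole window and shown in Pck1 as its reverse complement, a form of the site bound by the liver factor HNF1. The windows are chr5:90460620-90460919 (plus strand) for Alb, chr6:71199629-71199928 (plus) for Fabp1, chr2:173152823-173153122 (plus) for Pck1 and chrX:74270566-74270865 (plus) for Rpl10, the ribosomal protein target of highest rank with a single window. Fabp1 is the target of highest rank with the first motif and Pck1 the one of highest rank with both.
Alb: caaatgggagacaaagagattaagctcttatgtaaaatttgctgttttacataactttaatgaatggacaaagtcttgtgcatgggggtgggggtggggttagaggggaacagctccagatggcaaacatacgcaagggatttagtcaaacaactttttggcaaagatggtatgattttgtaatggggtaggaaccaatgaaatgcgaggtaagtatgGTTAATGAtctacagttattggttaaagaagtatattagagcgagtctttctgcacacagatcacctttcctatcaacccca
Fabp1: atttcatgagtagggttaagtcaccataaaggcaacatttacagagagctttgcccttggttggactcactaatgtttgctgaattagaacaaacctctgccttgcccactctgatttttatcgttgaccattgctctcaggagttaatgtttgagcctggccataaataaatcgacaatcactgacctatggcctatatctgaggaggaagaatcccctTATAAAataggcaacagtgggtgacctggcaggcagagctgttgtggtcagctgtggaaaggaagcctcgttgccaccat
Pck1: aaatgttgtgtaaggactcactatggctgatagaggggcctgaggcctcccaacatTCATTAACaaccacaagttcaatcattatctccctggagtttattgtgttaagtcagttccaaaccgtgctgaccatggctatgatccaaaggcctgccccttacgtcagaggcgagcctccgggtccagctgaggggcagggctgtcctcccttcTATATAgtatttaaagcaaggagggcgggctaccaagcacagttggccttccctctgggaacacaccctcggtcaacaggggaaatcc
Rpl10: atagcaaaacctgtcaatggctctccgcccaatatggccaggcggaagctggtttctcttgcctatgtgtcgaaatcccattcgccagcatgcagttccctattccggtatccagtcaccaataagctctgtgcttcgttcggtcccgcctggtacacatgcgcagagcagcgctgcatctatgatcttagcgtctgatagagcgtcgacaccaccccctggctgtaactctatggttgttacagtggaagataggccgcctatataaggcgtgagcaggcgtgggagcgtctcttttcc

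Among 12649 targets of a single gene with a single window, TATANA was present in 4.21% and GTTAATNA in 2.26%. In ranks 1 to 10 each was present in 1 of 4 windows, and in ranks 11 to 50 in 5 and 4 of 24. In ranks 51 to 200 they were present in 10.1% and 8.86% of 79 windows, and in the fourth tier in 3.32% and 2.65% of 452. The median number of CG pairs per window was 3.5 in ranks 1 to 10, 5 in ranks 11 to 50, 10 in ranks 51 to 200, 19 in the fourth tier and 22 in the fifth tier, against 15 over all. Targets not above the limit had a median of 11 CG pairs, near that of ranks 51 to 200, and TATANA was present in 5.01% of them. Within the first 200 ranks the windows of 30 secreted protein targets had a median of 3.5 CG pairs, those of 17 detoxification targets 4 and those of 7 targets of lipids and bile acids 3, while 15 windows of ribosome and translation targets had a median of 17. GTTAATNA was in 8 of the 30 secreted and none of the 15 ribosome and translation windows, and TATANA was in 3 and 2 of them. These are counts with no test of a link to function. The motifs were chosen after looking at the windows of abundant genes, a match is a description of letters and not a binding site, and a window without one says nothing of the factor.

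Ranks 51 to 200 held 10.4 ± 0.586% of the counts, at 36.3 to 108 times the negative probe level. Ribosomal proteins and translation factors filled 19.5 ± 1.70%, detoxification 17.6 ± 0.210%, secreted proteins 17.3 ± 0.776% and the enzymes of amino acids and urea 12.3 ± 0.738% of the tier. Of the 85 cytosolic ribosome targets, 31 fell in these ranks and 47 in the fourth tier, and 81 were called above the limit. Rps2, a target shared by 2 genes, led them with 94.7, 93.99 and 99.9 times the negative level, followed by Rpl10 at 81.9, 89.7 and 88.8 and Rpl4 at 80.0, 82.0 and 82.7. These leading subunits sat close to each other in all regions, whereas the median of the list was 28.2 times. The list held 3.15 ± 0.0797% of all gene counts.

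Of the 97 targets of amino acids and urea, 17 were in the same ranks and held 1.28% of all gene counts, and 40 were in the fourth tier and held 0.764%. Ass1, whose target is shared by 2 genes and which joins citrulline to aspartate in the urea cycle, was at 69.5, 84.9 and 143 times the negative level. Cps1, which fixes ammonia at the entry of that cycle, was at 70.1, 83.0 and 133 times, and Arg1, which releases urea, at 43.1, 49.9 and 62.2 times. All 3 were highest in NCD 3. All 8 urea cycle targets were called, and together they held 0.353 ± 0.0766% of counts. Tat, the first enzyme of tyrosine breakdown, was at 107, 120 and 85.4 times and Tdo2, the first enzyme of tryptophan breakdown, at 78.8, 89.3 and 86.2 times. Glud1, which releases ammonia from glutamate, was at 74.0, 76.6 and 87.1 times. Of the 66 targets of amino acid breakdown 62 were called. In the methionine cycle Ahcy, a target shared by 2 genes that clears adenosylhomocysteine, was at 108, 112 and 121 times, and Bhmt, which remethylates homocysteine with betaine, at 41.4, 44.5 and 106 times.

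Drug and alcohol metabolism was spread over many members. Of 75 targets in the list of P450s and reductases 47 were called and 28 were not above the limit. Ranks 51 to 200 held 9 of the called targets and ranks 11 to 50 held 2. These 2 were Cyp2e1 and Mgst1, a glutathione transferase that was counted in this list. Cyb5a, the electron donor cytochrome b5, was at 96.98, 108 and 116 times the negative level and Cyp3a25 at 103, 105 and 76.0 times. Gstm1 and Gsta3, glutathione transferases of the mu and alpha classes, were at 137, 140 and 159 and at 86.6, 93.6 and 115 times. Aldh2, which clears acetaldehyde, was at 90.8, 99.7 and 133 times. Among 26 carboxylesterases and lipases only Ces1c, an esterase that leaves the liver for plasma, was within the first 200, at 158, 173 and 200.6 times.

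The fourth tier, down to rank 1000, held 15.6 ± 0.523% of the counts, at 9.54 to 36.4 times the negative level, and held more targets of respiration and fat oxidation than any other tier. Ribosome and translation filled 9.51 ± 0.444% of its counts, detoxification 7.64 ± 0.192% and secreted proteins 7.42 ± 0.449%. Lipids and bile acids filled 6.82 ± 0.278% and respiration 6.25 ± 0.220%. Of the 89 targets of the respiratory chain and ATP synthase, 44 fell here, 26 in the fifth tier and 5 above, and 80 were called. Atp5a1, a catalytic-head subunit of ATP synthase, led them from rank 88 at 57.8, 67.2 and 93.5 times the negative level. Of 45 targets of fatty acid oxidation and ketogenesis 20 were in this tier and 43 were called. Glycolysis, gluconeogenesis and glycogen had 17 of 37 targets here. Fbp1, which removes a phosphate from fructose bisphosphate and lay just above at rank 148, was at 31.7, 38.3 and 68.2 times and G6pc, which frees glucose, at 33.1, 38.4 and 24.8 times, so these neighbours in gluconeogenesis were highest in different regions. Of the 25 targets of cholesterol synthesis 23 were called. Bile acid synthesis and transport had 26 of 27 called, led by Scp2, a sterol carrier, at 107, 122.5 and 173 times and Slco1b2, a transporter that takes up bile acids and drugs, at 64.9, 65.5 and 74.2 times.

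The median target of ER folding and secretion was at 9.95 times the negative level and that of heat shock proteins and chaperones at 15.6 times, below the 37.6 times of plasma carriers and above the 2.62 times of acute phase proteins. Hsp90b1, a chaperone of the endoplasmic reticulum, was at 42.4, 43.6 and 53.8 times the negative level, and 40 of 42 targets of folding and secretion were called, 21 of them in the fourth tier. Of 45 targets of the proteasome and ubiquitin 38 were called, led by Ubb, a target shared by 2 genes at 168, 182 and 256 times, but 19 lay in the fifth tier and 15 after it. Lamp2, a membrane protein of lysosomes, was at 74.6, 81.0 and 87.6 times. Of the 21 targets in the list of growth factor and hormone receptors, 2 were in the first 200 ranks. They were Ghr, the growth hormone receptor, at 74.6, 78.4 and 89.0 times and Asgr1, a chain of the asialoglycoprotein receptor, at 36.7, 41.7 and 56.0 times.

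Regulators and chromatin lay low. Of 33 liver transcription factor targets 23 were called, 10 of them in the fourth tier and none above. After Hnf4a came Cebpa at 13.7, 16.1 and 20.2 times, Xbp1, which expands the secretory route, at 12.5, 15.2 and 22.2 times and Rxra, the partner of many nuclear receptors, at 15.2, 16.5 and 17.04 times. Of 19 clock targets 14 were called, led by Nr1d1 at 17.9, 20.5 and 20.04 times. Of 33 chromatin and histone targets 17 were called. Cell cycle targets were mostly at background: 3 of 28 were called, a share under that of all gene targets, namely Pcna at 4.27, 4.65 and 4.40 times, Ccne2 at 2.84, 2.69 and 2.34 times and Rrm2 at 2.60, 2.34 and 2.75 times. The fifth tier, down to rank 3000, held 14.1 ± 0.130% of counts at 4.20 to 9.71 times the negative level, and the 3592 further targets called above the limit held 12.98 ± 0.607%, down to rank 6719 and 2.35 times. The function lists covered 82.7% of the targets in ranks 51 to 200, 51.9% in the fourth tier and 15.8% in the fifth tier, so the lower tiers are mainly undescribed by them.

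**Figure D3:**
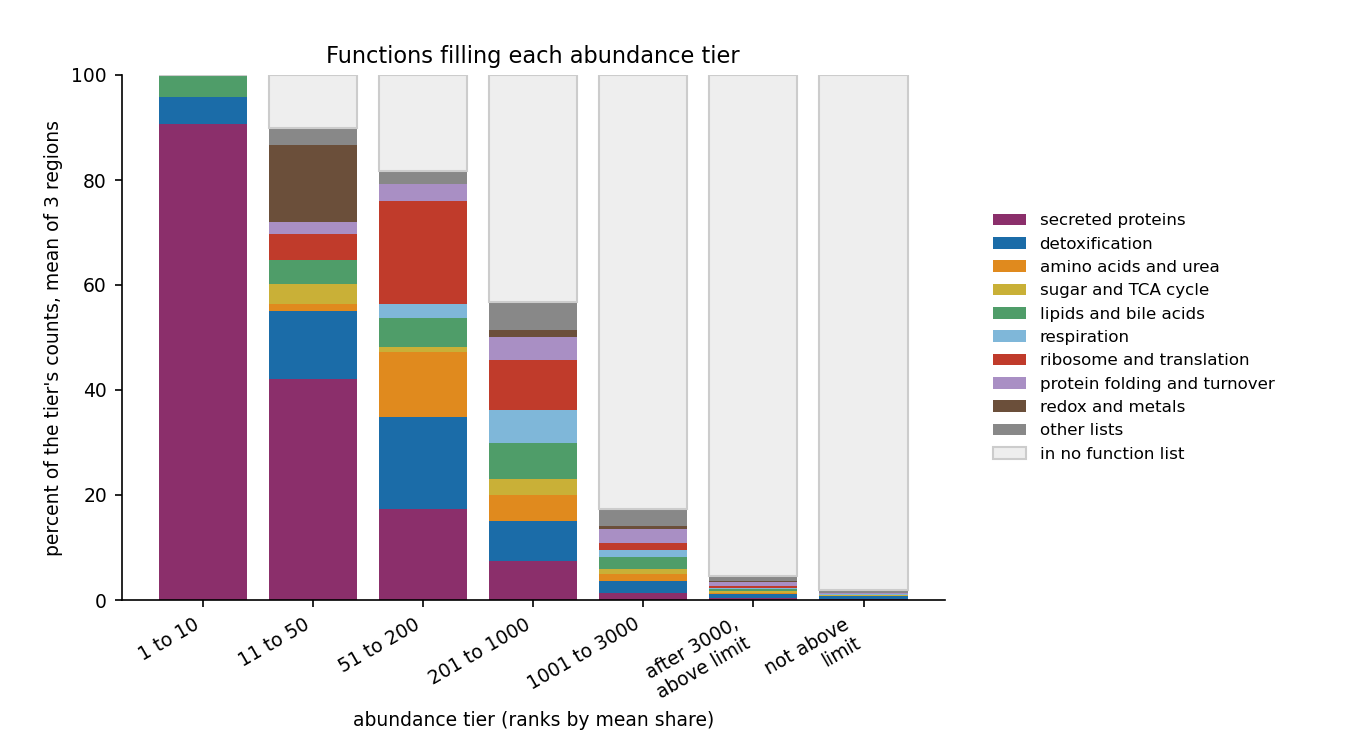
Stacked bars give the percent of each abundance tier's counts (mean of 3 NCD regions) held by 10 groups of function lists, with targets in no list in light grey. The fourth bar is the tier down to rank 1000 and the fifth bar the tier down to rank 3000. Secreted proteins fill 90.7% of ranks 1 to 10 and 1.41% of the fifth tier, and ribosome and translation peak at 19.5% in ranks 51 to 200.

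Over all ranks, secreted proteins held 21.1 ± 1.81% of the counts with 157 targets, detoxification 5.62 ± 0.118% with 233 and ribosome and translation 4.26 ± 0.117% with 156. Plasma carriers alone held 8.94, 9.47 and 11.7% in NCD 1, NCD 2 and NCD 3. Lipids and bile acids held 3.11 ± 0.315%, amino acids and urea 2.40 ± 0.220%, sugar and the TCA cycle 1.16 ± 0.152% and respiration 1.496 ± 0.125%. Against the 33.0% of all targets called, the larger lists of blood proteins were called in most of their members: 40 of 43 plasma carriers, 24 of 25 apolipoproteins and lipoprotein proteins, 29 of 31 coagulation and 30 of 34 complement targets. Of the smaller ones, 7 of 9 serpins of the A family were called. The list of major urinary proteins held 2 targets, of which the shared Mup13 target was called. Its other member Obp2a, an odorant binding protein and no major urinary protein, was at 1.14 times the negative level and below the limit. Acute phase proteins had 9 of 13 called, of which Hamp and Orm1, an acid glycoprotein of plasma, were within the first 200. Enzyme families with many paralogs were called in part, with 41 of 67 conjugating transferases, 17 of 26 carboxylesterases and lipases and 47 of 65 alcohol, aldehyde and carbonyl reductases. In central metabolism 31 of 37 targets of glycolysis, gluconeogenesis and glycogen, 24 of 25 of the TCA cycle and shuttles, 21 of 23 of methionine and one-carbon units and 24 of 34 of lipid synthesis and storage were called. Of the housekeeping lists, 52 of 71 translation factors, 13 of 13 heat shock proteins and chaperones, 23 of 25 lysosomal, 17 of 19 cytoskeletal and 47 of 51 splicing targets were called. Antioxidant and glutathione enzymes had 19 of 21, metal handling 12 of 15, surface receptors 16 of 21 and MHC class I 7 of 10 called.

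Other cell types were sought with marker lists. Which calls a tissue without a given cell type produces was read from 8 lists of tissues outside the liver, of which 12 of 124 targets (9.68%) were called, and from 1116 odorant and vomeronasal receptor targets, of which 66 (5.91%) were called. The receptors had a median of 1.27 and a 95th percentile of 2.48 times the negative level. Against these shares and the 33.0% of all targets, 4 non-hepatocyte lists stood high: Kupffer cells with 16 of 16 called, sinusoidal endothelium with 13 of 18, stellate cells with 9 of 16 and dendritic cells with 8 of 15. The summed level of 218 non-hepatocyte markers was 0.772, 0.722 and 0.642% of counts, or 0.604% after subtraction of the negative level. In such areas fewer cells of a type and less RNA per cell cannot be told apart.

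Kupffer cell markers were present although the areas were not marked for CLEC4F. Clec4f itself had 259, 273 and 392 counts, 9.09 ± 0.511 times the negative level (edgeR, adjusted p = 1.01e-21 against the limit and 1.37e-20 without NCD 3). The complement genes C1qa, C1qb and C1qc, which resident macrophages transcribe, were at 13.1, 13.03 and 11.3 times, at 13.4, 11.3 and 10.3 times and at 11.8, 11.3 and 10.8 times. Fcna, a ficolin, was at 12.7, 11.3 and 12.4 times. Marco, a scavenger receptor, was the weakest of the list at 2.66 times. Summed over the list the level was 124, 109 and 107 times the negative level. After upper quartile scaling 13 of the 16 markers were highest in NCD 1, and 13 to 15 were so under 5 scalings. Of all 6592 targets called, 1667 were highest in NCD 1 after upper quartile scaling, and 1172 to 2619 were so under the 5 scalings. Markers of recruited macrophages were mostly at background, with 4 of 14 called. These were Spp1 at 2.15, 3.795 and 5.56 times, Cd9, Plac8 and Ly6c1, a target shared by 4 genes. Trem2, Ccr2 and Lyz2 were at 1.502, 0.639 and 1.08 times.

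Sinusoidal endothelium was led by Eng, a co-receptor for transforming growth factor beta, at 12.5, 13.3 and 13.3 times the negative level and Dnase1l3, a secreted nuclease, at 12.7 ± 0.983 times. Ehd3 and Gpr182, which in the liver mark sinusoidal endothelium, were at 6.85 ± 0.912 and 6.799 ± 0.938 times. Of the same list Lyve1, Clec4g and Pecam1 were at background with 1.14, 1.21 and 1.01 times. Large vessel endothelium had 4 of 15 called, with Cdh5, the junction protein of all endothelia, at 4.37, 3.92 and 5.95 times and Vwf at 1.78 times. Stellate cell markers were led by Ecm1 at 17.6, 16.7 and 19.7 times and Dcn, the matrix proteoglycan decorin, at 16.5, 18.5 and 18.2 times, followed by Reln at 6.49, 6.89 and 5.34 times and Colec11 at 4.72, 5.28 and 5.93 times. Lrat, the retinol-storing enzyme of these cells, was at 2.07 times and was not called, and Des of the same list was below the limit. The median of the stellate list was 2.46 times, beside a receptor 95th percentile of 2.48 times. In every region 7 of its 16 markers were over the receptor 95th percentile of that region. Fibroblasts had 4 of 16 called, and Col1a1, the main fibrillar collagen, had 40, 47 and 45 counts, which lay below the limit at 1.33 ± 0.197 times (adjusted p = 2.84e-05, and 0.00411 without NCD 3).

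The calls of the dendritic cell list were led by genes of class II presentation, which macrophages and B cells use as well. Cd74, the invariant chain, was at 16.6, 14.1 and 9.81 times, H2-Ab1 at 8.08, 7.78 and 4.85 and H2-Aa at 6.97, 6.23 and 5.36 times. Each was highest in NCD 1 and lowest in NCD 3, as were all 8 called markers of the list under 5 scalings. Of all 6592 targets called, 1667 were highest in NCD 1 and 1860 were lowest in NCD 3 after upper quartile scaling. The markers that define dendritic subsets, Xcr1, Flt3, Clec9a and Siglech, were at 1.995, 1.88, 1.77 and 1.52 times and none was called. Of B and plasma cells 3 of 14 were called: Ighm at 9.71, 8.57 and 7.67 times, Igkc at 5.24, 4.36 and 2.63 and Ms4a1 at 4.20, 3.57 and 2.53 times, while Cd79a had 28, 30 and 54 counts and was at 1.08 ± 0.213 times.

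Erythroid RNA was seen as globin, with Hba-a1, a target shared by 2 genes, at 7.77, 10.1 and 13.2 times and Hbb-b1, shared by 3, at 3.92, 3.92 and 6.39 times. Of the 10 targets of the erythroid list 3 were called, a share under the 33.0% of all gene targets, and the median was 1.10 times. Several expected neighbours of hepatocytes were not distinguished from background. Of 14 cholangiocyte markers 2 were called, Spp1 and Aqp1, a water channel that endothelium also carries, at 9.85, 11.7 and 12.8 times. Krt19, the keratin that marks bile ducts, had 20, 40 and 32 counts and was below the limit at 0.915 ± 0.306 times (adjusted p = 4.53e-09, and 6.60e-06 without NCD 3), and Epcam was at 0.844 times. Of 20 T and NK cell markers only Il7r was called, at 4.20, 4.49 and 3.22 times, and Cd3e with 63, 70 and 80 counts was at the limit with 2.12 ± 0.135 times (adjusted p = 0.522, and 0.323 without NCD 3). Neutrophils, mast cells and mesothelium had 1 of 14, 1 of 10 and 0 of 8 called. Smooth muscle and platelets each had 2 of 10 called and lymphatic endothelium had 1 of 4, namely Reln, which is also in the stellate list. Outside the liver the lists ranged from 0 of 15 for neurons and for photoreceptors over 1 of 18 for muscle, 1 of 15 each for intestine and lung, 2 of 15 for testis and 3 of 16 for pancreas to 4 of 15 for epidermis. Markers named here as not called, other than Krt19, Col1a1, Cd3e and Cd79a, were picked after their values were seen. At this detection limit such cells were not detectable, which does not show that they were absent.

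**Figure D4:**
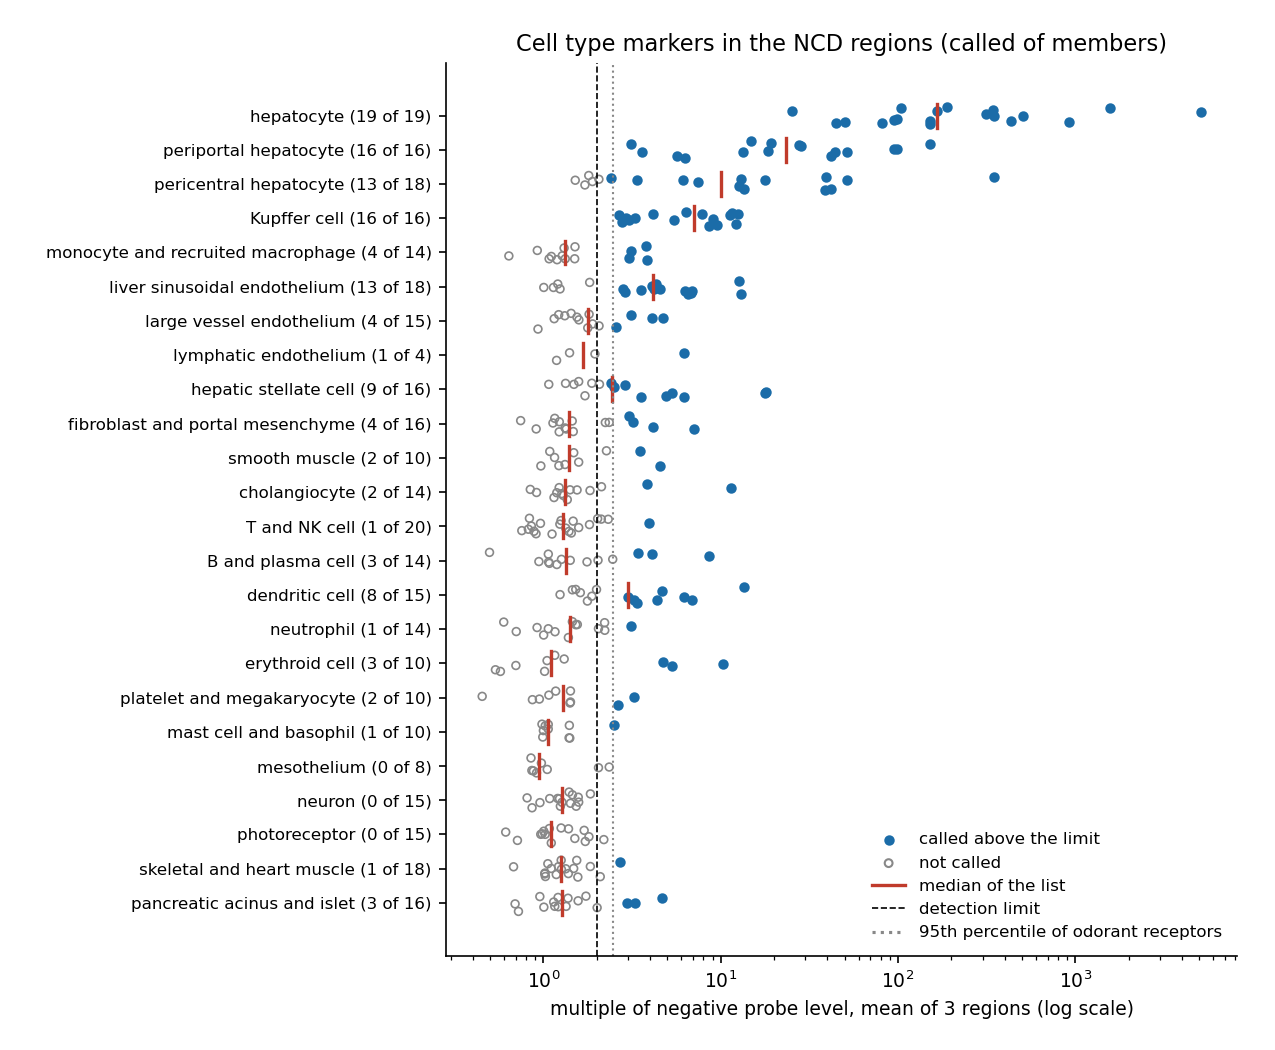
Mean multiple of the negative probe level (log scale) of each marker over 3 NCD regions, by list, with the number called and the number of members beside the name. Filled points are called above the limit, the red bar is the median of the list, the dashed line is the limit of 2 and the dotted line is the 95th percentile of 1116 receptor targets at 2.48. Kupffer cell and sinusoidal endothelium medians lie to the right of both lines, and medians of cholangiocyte, T cell and neutrophil lists lie to the left with those of 4 lists of tissues outside the liver.

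The spread between regions was small for most abundant targets. Among 813 targets at 10 times the negative level or more in every region, the ratio of the highest to the lowest region after upper quartile scaling had a median of 1.24, and it exceeded 1.5 for 91 targets and 2 for 13. NCD 3 was the highest or the lowest region for 745 of the 813, NCD 1 for 602 and NCD 2 for 279, each target counting for its highest and its lowest region. Between NCD 1 and NCD 2 the median ratio was 1.06, the largest 1.34, and no target exceeded 1.5. The biological coefficient of variation of single targets, edgeR's moderated estimate that leaves out counting noise, was also taken by tier. Its median was 12.6% in ranks 1 to 10, 11.3% in the fourth tier and 9.20% in the last tier above the limit. The median ratio of highest to lowest region, which includes counting noise, was 1.38, 1.24 and 1.22 in these tiers. It was 1.21 in the fifth tier and 1.30 in targets not above the limit.

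The target with the widest spread was Alas1, the rate-limiting enzyme of haem synthesis in the liver, at 12.3, 12.5 and 55.0 times the negative level, so that its level in NCD 3 stood 4.30 times over NCD 2 after scaling. Bhmt followed with a ratio of 2.43, and Thrsp, a protein of fat synthesis, at 12.2, 14.5 and 30.8 times, with 2.40. Ttc39c, Tkfc, a kinase of fructose breakdown, Ces3b and Selenbp1, targets shared by 2 genes each, and Keg1 were likewise highest in NCD 3, with ratios of 2.08 to 2.37. Cyp4a10, a fatty acid hydroxylase, ran the other way at 31.9, 26.3 and 15.2 times, and so did Etnppl, which breaks down phosphoethanolamine, at 21.4, 24.3 and 11.9 times. The steadiest targets were Rpl35a at 57.6, 59.6 and 60.3 times with a ratio of 1.01, Tpt1 with 1.01, Rpl23a with 1.01, Rack1 with 1.02 and Emc7 with 1.02. These extremes were picked by the ratio itself and carry no test, and all 10 wide ratios rest on NCD 3.

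Zonation markers were compared between regions after upper quartile scaling. All 16 periportal markers were called, and 14 were highest in NCD 3. The exceptions were Pck1 and Etnppl. Of all 6592 targets called 3331 were highest in NCD 3, and of the 813 targets at 10 times the negative level or more 639 were. The median ratio of NCD 3 to NCD 1 was 1.47 for the periportal markers, against 1.07 for all targets called above the limit. It was 1.20 for the 813 targets at 10 times the negative level or more, 1.35 for the hepatocyte list, with 16 of 19 highest in NCD 3, and 1.32 for secreted proteins, with 118 of 140. These lists, of which the hepatocyte list shares members with the periportal one, were thus also mostly highest in NCD 3, and a difference between the lists was not tested. Without NCD 3, the median ratio of NCD 2 to NCD 1 was 1.17 for these markers and 1.02 for all called targets. Ass1 after scaling stood at 2419, 2857 and 4723 counts, Cps1 at 2441, 2792 and 4405 and Cyp2f2, a P450 of portal hepatocytes, at 1082, 1437 and 1935. Of 18 pericentral markers 13 were called, and their ratios of NCD 3 to NCD 1 ran both ways with a median of 1.10. Glul, the glutamine synthetase of the last cells before the central vein, stood at 1563, 1800 and 1840 scaled counts and Cyp2e1 at 12049, 11376 and 11727. Oat, an ornithine aminotransferase, was higher in NCD 3 with 1241, 1398 and 1619. Notum, a Wnt inhibitor at 129, 125 and 89.3, and Tbx3, a Wnt target, at 89.3, 88.4 and 67.4, were lowest in NCD 3, and both were singled out after their values were seen. Axin2, Lgr5 and Rnf43, further Wnt targets of the central zone, were at 1.51, 1.89 and 1.80 times the negative level and were not called.

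The size of these region differences depends on the scaling. Each scaling multiplies a region by a single factor, so the contrast between a list and all called targets is the same under every scaling by construction. With total counts the periportal median ratio was 1.32 and that of all called targets 0.959, and with negative probe scaling these were 1.55 and 1.13. Between 13 and 14 of the 16 periportal markers were highest in NCD 3 under 5 scalings. Of the 813 targets at 10 times the negative level or more, 470 to 673 were so. The median ratio of pericentral markers was 0.993 with total counts and that of the 81 ribosomal targets called ran from 0.956 with total counts to 1.12 with negative probe scaling, so neither has a direction. Beyond a comparison with sampling noise, no test between regions is possible because each is a single sample.

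**Figure D5:**
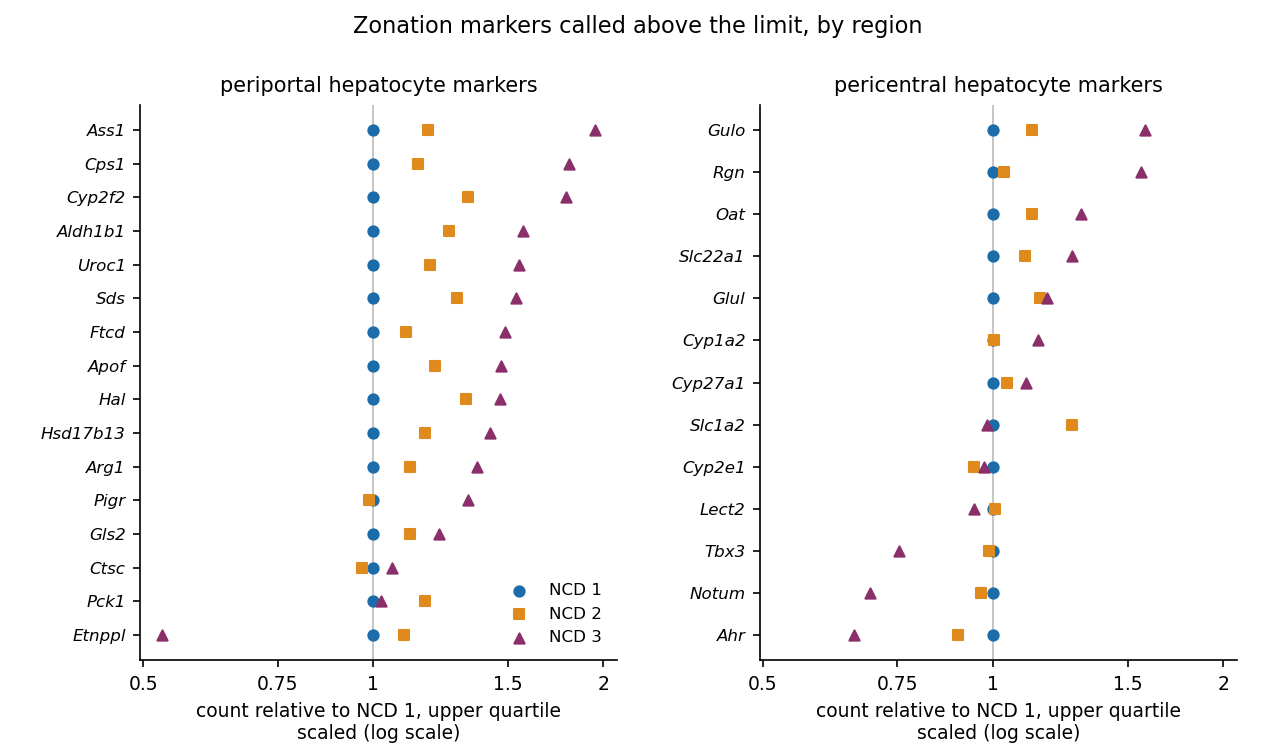
Upper quartile scaled counts of each zonation marker called above the limit, relative to NCD 1 (log scale), with 1 symbol per NCD region, for 16 periportal markers on the left and 13 pericentral markers on the right. NCD 3 lies to the right of NCD 1 for all periportal markers except Etnppl, whereas pericentral markers lie on both sides of 1.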

How the data were processed

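The authors deposited a table of GeoMx target counts per region after probe quality control, with a table of region properties. Its values are deposited estimated counts, whole numbers except for 4 targets, and were rounded for edgeR. The submitters' processing notes name GRCm38 and edgeR without versions or roles, and how probes were filtered is not given in the sources used here. The deposited limit of quantitation, a count whose formula is not stated, the deposited sequencing saturation in percent and slide positions, which have another unit that is not stated, were used as given. Deposited normalized tables, the second diet and the no template control were not used here.

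Shares were taken over 19951 gene targets, leaving out 12 that are not genes. The negative probe target combines 210 probes, and 653 gene targets are shared by several genes. Detection was tested with edgeR 4.0.16 (R 4.3.3), fitting each target's mean across the 3 NCD regions with the logarithm of 2 times each region's negative probe count as offset. Since glmQLFTest takes no design of a single column, the quasi-likelihood F statistic against that offset was computed from the fitted deviances. P-values were adjusted by Benjamini-Hochberg over all 19951 targets, and they measure only the spread between these regions. In data simulated for this comparison on 19951 targets, 2% of targets placed at the limit, 86% at 1.25 times and 100% at 1.5 times the limit were called. Region ratios used upper quartile scaling (75th percentile of counts). DESeq2 1.42.0 was an alternative, and the closing section gives the effect of all alternatives.

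Members and lists (37 of functions, 20 of cell types, 9 of other tissues, receptors included) were chosen with earlier results of these data known. Text names the 25 most abundant targets, up to 4 of each function list by share (2 more where members of the 25 lead it), up to 4 of each cell list by multiple with Clec4f, Krt19, Col1a1, Cd3e and Cd79a, and, among targets at 10 times the negative level or more, the 10 widest and 5 narrowest between regions. Other names are marked or are values at tier borders. Some targets that this rule names are not reported here. Gene positions, promoters and 19912 matched gene IDs come from RefSeq.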

Additional observations from a re-analysis of the deposited data

Results flagged for a closer look

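The assay holds 11 targets for reporter and transgene sequences. The target for mCherry and tdTomato was read at 171, 198 and 168 counts in NCD 1, NCD 2 and NCD 3, which is 5.93, 6.26 and 4.13 times the negative probe level (mean 5.44 ± 1.15, n = 3 regions), over the detection limit of 2 times in all 3 regions. It drew attention because it carries signal outside the gene targets and no label names a reporter. The other 10 such targets were at 1.08 times (GFP) or lower, down to 0.615 times (Flp Recombinase). No cause was tested. With 3 regions no region could be examined as standing apart from its group by a rule on gaps.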

How the results depend on the processing

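No paired analysis was possible because the NCD regions are a single group. The number of targets above the limit was 14761 with a limit of 1 times the negative probe level and 3884 with 3 times, against 6592, since these alternatives move the limit itself. It lay between 4928 and 6962 under the other alternatives: 6020 with DESeq2, all of them shared, 5195 with the deposited limit of quantitation, 4928 with the receptor 95th percentile (chosen after seeing the data, as was summing NCD 1 and NCD 2) and 6050 to 6476 with a region left out. The 71 non-hepatocyte markers called became 150 and 47 with limits of 1 and 3 times, and 68 to 72 with a region left out. The share of Alb became 7.59% after subtraction of the negative level and 5.27 to 6.28% with a region left out. The first 10 targets held 19.5% after subtraction, 16.7% over the targets of the deposited filtered table, 13.97% over targets of a single gene and 10.3% without Alb, with 14.6 to 15.5% when a region was left out. The first 200 held 45.5% after subtraction, 39.1% over the filtered table and 31.4% without Alb, with 34.2 to 36.3% when a region was left out. Secreted proteins held 27.1%, 23.3% and 16.2% under the same alternatives, with 20.1 to 21.8% when a region was left out. The biological coefficient of variation ran from 4.04% without NCD 3 to 14.1% without NCD 2. Among the remaining values, 1828 were alike, 208 moved by more than the spread, 38 passed the threshold only under an alternative, 27 only in the main setting, and 22 called markers turned direction because the limit itself was moved. With a limit of 1 times, 13 markers below the limit came to lie over it, with log2 multiples of 0.068 for Bnc1, 0.15 for Cd79a, 0.25 for Pdpn, 0.39 for Col1a1, 0.46 for Cma1, 0.47 for Mcpt4, 0.49 for Mmrn1, 0.51 each for Cpa3 and Itga2b, 0.59 for Slc32a1, 0.64 for Ryr1, 0.65 for Gad2 and 0.66 for Des. With a limit of 3 times, 9 markers over the limit came to lie under it, with -0.018 for Iapp, -0.17 each for Ckm, Ivl and Lce1a1, -0.20 for Itgb3, -0.23 each for Krt10 and Rspo3, -0.26 for Kit and -0.27 for Prm1. Under the other alternatives no called marker turned. Saturation was 99.2% in every region, and the deepest region, NCD 3, had 7996 targets over the limit without a test against 8077 and 8366, so that number did not rise with depth.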

Other observations

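Several abundant targets belonged to no function list and were singled out after their values were seen. Smc3, a ring subunit of cohesin, was at rank 55 and Errfi1, a feedback inhibitor of the EGF receptor, at rank 57, both among transcripts of metabolic enzymes. The target LOC118568792, shared by 40 genes, was at rank 72. The target Vmn1r100, shared by 46 vomeronasal receptor genes, was at rank 134 with 52.1, 50.9 and 44.0 times the negative probe level, and Vmn2r46, shared by 11 genes, was at 10.7 ± 1.81 times (n = 3 regions), whereas the median of 1116 odorant and vomeronasal receptor targets was 1.27 times.

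Genes of the Y chromosome were also seen, while the labels do not give the sex of the mice. Eif2s3y was at 5.76, 6.83 and 6.76 times the negative level, Ddx3y at 3.19, 3.04 and 3.74 times and Kdm5d at 2.19, 2.88 and 2.31 times, and all 3 were called. Uty at 1.56, 1.90 and 1.82 times was not (edgeR, adjusted p = 0.154, and 0.177 without NCD 3).

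Among markers of tissues outside the liver the highest were Fabp2 of the intestine at 6.05 times, Hopx of the lung at 4.86 times and Ctrb1 of the pancreas at 4.68 times. Among odorant and vomeronasal receptor targets of a single gene the highest was Olfr1507 at 7.98 times.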
